A study of Mus musculus with 13 samples.

Results

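The genes described are those of the cytosolic ribosomal proteins of the mouse, taken by symbol from the annotation: protein-coding genes named Rpl or Rps with a number, at most one of the letters a, x or l and at most one further digit, with Rplp0, Rplp1, Rplp2 and Rpsa added and the Rps6k kinases left out. The annotation held 84 such genes, of which 77 had values among the 16382 genes of the deposited tables and 76 had a mean normalized count of 10 or more. These 76 comprised 41 core genes of the large subunit, 3 genes of the ribosomal stalk, 29 core genes of the small subunit and 3 paralogs, which are Rpl7l1, Rpl22l1 and Rps27l. Of the other 8, Rpl24, Rpl41, Rps13, Rps27, Rpl10l, Rpl39l and Rps4l were not analysed here, and Rpl3l lay below the minimum. Values came from C2C12 myotubes, mouse myoblasts of an established line that had been differentiated for 8 days and then kept for 24 h in medium with 10 µM palmitoylethanolamide (PEA), a fatty acid amide made by the body, or with the solvent DMSO alone (CON). Each group held 6 RNA-seq libraries, from duplicate wells of 3 repeats of the experiment; which libraries were wells of the same repeat was not stated, so p-values measured the spread between libraries, part of which may be technical. All values come from a clonal line in culture without nerve or vessel.

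Each ribosome joins a small subunit, which reads the mRNA, to a large subunit, which forms the peptide bond, and every subunit carries a set of proteins present mostly in a single copy. In mammals the mRNAs of these proteins share a 5′ terminal oligopyrimidine (TOP) motif, a start at C followed by a run of C and T, through which mTOR and the RNA-binding protein Larp1 control their translation. Ribosome content rises and falls with growth in skeletal muscle, and a few ribosomal proteins have paralogs with tissue-restricted use, such as Rpl3l, which replaces Rpl3 in striated muscle. Ribosomal protein mRNAs are also the most frequent source of processed pseudogenes, intronless copies scattered over the genome, so that short reads of the one can be placed on the other.

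Library totals ran from 12354845 to 50397444 estimated counts in CON and from 16202357 to 22363990 in PEA. Of the 13142 genes tested by edgeR's quasi-likelihood test, 623 (4.74%) were lower and 829 (6.31%) higher in PEA at a Benjamini-Hochberg adjusted p below 0.05, and the median log2 fold change was 0.0051. All 10 myotube markers, among them Myog, Ckm and Acta1, had counts in every library. Their summed normalized count ran from 116140 to 176516 in CON and from 123521 to 139094 in PEA, all 10 log2 fold changes were below 0 with a median of -0.21, and 1 of the 10, Tnnt3, was called lower. By Dixon's criterion CON replicate 4 lay far from the other CON libraries in 10 of the 76 ribosomal protein genes, against 1.78% of all genes tested, and the remaining 11 libraries did so in 3 of them together.

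Because of these copies, the first measurement concerned where the counts of each gene had been placed. Copies were searched only among genes with values: pseudogenes, and protein-coding genes with Rpl or Rps names that end in -ps with a number or in rt. Against the members' coding sequences, at 90% identity or more over 80% or more of the length, 241 copies were found. A further 6, copies of Rpl24, Rps13 and Rps27, were left out of the sums because those genes were not analysed here. Other annotated genes, and copies without values, were not searched, so the sums may be incomplete. Of the 73 core genes, 62 had at least 1 copy, 42 had more count on the copies than on the gene itself, and 16 held under 10% of the summed count of gene and copies. Summed over the 76 genes and these copies, the genes themselves held 39.1 to 41% of the sum in CON and 39.9 to 40.7% in PEA, and the groups overlapped. The sequences show how alike the pairs are. Below, for each of 3 genes with little of the count and for a gene with an identical copy, a stretch of 60 coding bases of the gene stands above the same stretch of its main copy, from the reference transcripts of GRCm39, with differing bases of the copy in capitals; where copies differed, the stretch was taken over a difference.

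Rpl9, chr5:65540227-65548804, minus strand: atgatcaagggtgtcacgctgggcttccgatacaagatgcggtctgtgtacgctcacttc
Rpl9-ps6, chr19:32443265-32443978, minus strand: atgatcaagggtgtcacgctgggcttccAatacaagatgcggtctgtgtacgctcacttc
Rpl37, chr15:5145959-5153877, plus strand: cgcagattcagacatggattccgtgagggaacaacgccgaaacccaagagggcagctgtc
Rpl37rt, chr5:115241287-115241580, minus strand: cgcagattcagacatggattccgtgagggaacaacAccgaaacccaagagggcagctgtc
Rpl35, chr2:38891591-38895637, minus strand: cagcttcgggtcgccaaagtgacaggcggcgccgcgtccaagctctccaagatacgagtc
Rpl35rt, chr1:156193610-156194054, plus strand: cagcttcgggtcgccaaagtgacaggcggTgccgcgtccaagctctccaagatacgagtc
Rpl31, chr1:39406884-39413938, plus strand: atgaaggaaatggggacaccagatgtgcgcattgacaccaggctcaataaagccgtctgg
Rpl31-ps8, chr15:90648482-90648859, minus strand: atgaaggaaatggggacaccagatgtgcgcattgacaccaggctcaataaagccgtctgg

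Rpl9 and Rpl9-ps6 shared a run of 313 identical coding bases out of 579, Rpl37 and Rpl37rt 248 of 294, Rpl35 and Rpl35rt 255 of 372, and Rpl31 and Rpl31-ps8 all 378. The study's methods give reads of 50 bases, the stretch length used here, while its alignment summary lists a longer average length, so shares of stretches found in no other gene depend on this choice. A read that lies inside such a run carries no base that tells the gene from the copy. Rpl9 had a mean normalized count of 174 against 18988 for Rpl9-ps6, and Rpl3, which binds near the peptidyl transferase centre, had 1053 against 32240.3 for Rpl3-ps1. Rpl8, a core gene of the large subunit with no copy in the table, had 93.7% of its 50-base stretches to itself and a mean of 36770.1. Over the core genes the median share of 50-base coding stretches found in no other annotated gene was 9.65%, and 24 of the 73 had none. A value at the gene itself is therefore uncertain for most members, and for many of the genes described the sum over gene and copies is given beside it. Reads truly transcribed from a copy cannot be told apart from reads of the gene in these tables.

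**Figure D1:**
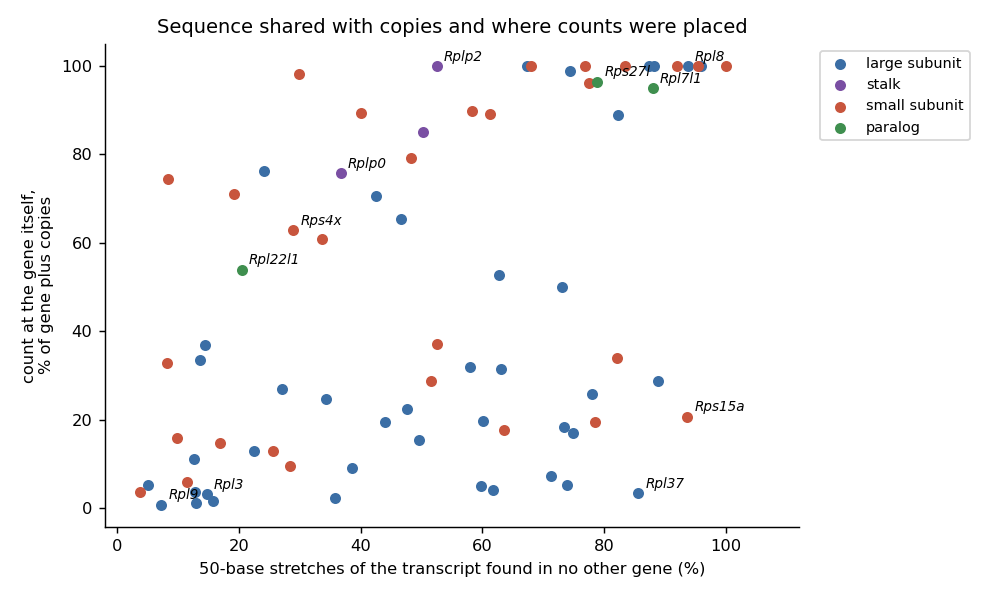
Share of 50-base transcript stretches found in no other annotated gene (x axis, %) against the share of the summed count of gene and copies that was placed on the gene itself (y axis, %) for the 76 members, coloured by class. Rpl9 and Rpl3 sit near 0 on the y axis, Rpl8 at 100, and Rpl37 low on the y axis in spite of 85.6% of stretches of its own. Of the coding stretches of Rpl37 alone, 18.8% were its own.

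Ribosomal protein genes took a smaller part of the PEA libraries. Their share of all estimated counts was lowest, median and highest at 2.39, 2.48 and 2.84% in CON and 2.17, 2.32 and 2.48% in PEA, with means of 2.55 ± 0.172% and 2.31 ± 0.114% (SD, n = 6 libraries each). The shares of 5 PEA libraries lay below every CON library, and PEA replicate 1 lay inside the CON range. The copies ran the same way, with 3.59, 3.72 and 4.09% in CON and 3.21, 3.43 and 3.6% in PEA, and again 5 PEA libraries lay below all CON libraries. No p is given for these sums, since the genes were chosen with earlier results of these data known. In RNA from a whole well, fewer cells of a type and less RNA per cell cannot be told apart.

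**Figure D2:**
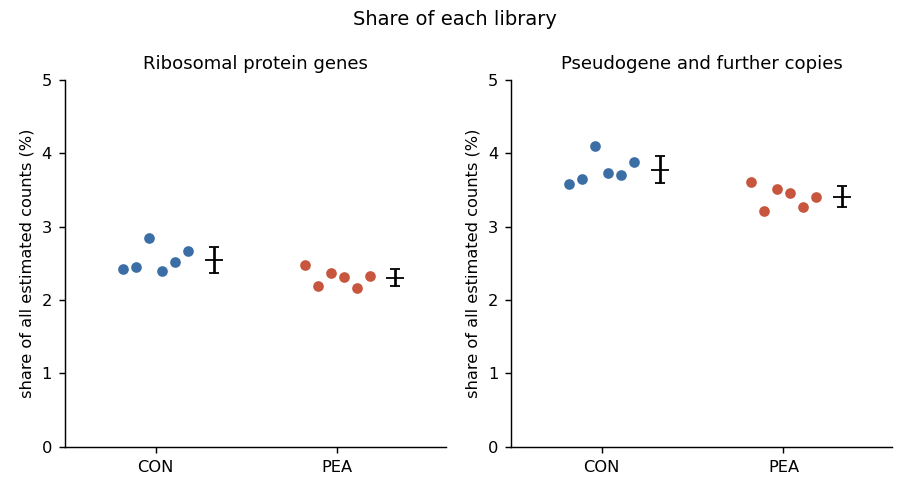
Share of all estimated counts (y axis, %) taken in each library by the 76 ribosomal protein genes (left) and by their 241 copies (right); points are libraries and the bar beside them gives mean ± SD for 6 CON and 6 PEA libraries. In both panels 5 PEA points lie below the lowest CON point.

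Of the 73 core genes, 29 (39.7%) were called lower and 0 higher in PEA, against 4.74% lower and 6.31% higher over all genes tested. DESeq2 and limma-voom also called 0 core genes higher, and in none of the 3 tools did a core gene lie higher at an unadjusted p below 0.05. The log2 fold change was below 0 for 71 core genes, its median was -0.18 against 0.0051 over all genes, and it ran from -0.53 for Rpl35 to 0.048 for Rpl29. The normalized counts of the groups did not overlap, PEA lower, for 7 core genes, against 1.81% of all genes tested. By class, 15 of 41 core genes of the large subunit, 1 of 3 stalk genes and 13 of 29 core genes of the small subunit were called lower, with medians of -0.18, -0.20 and -0.18. The count of calls depended on single libraries: it was 10, 12, 12, 15 and 19 without PEA replicate 5, PEA replicate 2, PEA replicate 6, CON replicate 6 and PEA replicate 4, where 2.22%, 2.59%, 2.16%, 2.48% and 2.8% of all genes were called lower. The median stayed between -0.21 and -0.14 over the 12 fits that left out 1 library.

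Markers of dividing cells went the other way, to higher values in PEA. All 6 of these markers (Mki67, Top2a, Cdk1, Ccnb1, Bub1 and Aurkb) were called higher in PEA, against 6.31% of all genes; their summed normalized count ran from 2118 to 5429.6 in CON and from 5538 to 6754 in PEA, without overlap, and none was at 0 in every library. Of 6 fibroblast markers 2 (Col1a2 and Dcn) were called higher by edgeR and 1 by DESeq2. In edgeR 4 of their log2 fold changes lay above 0 and 2 below, Lum at -0.77 (adjusted p = 0.0851) and Col3a1 at -0.12 (adjusted p = 0.246). Of 6 myoblast markers 1 (Cdh15) was called lower, against 4.74% of all genes called lower. The sums of both lists overlapped between groups. They ran from 69279.5 to 91194 in CON and 72380.3 to 83853 in PEA for the fibroblast list. For the myoblast list they ran from 23973 to 30748 in CON and 24714 to 28518 in PEA. The part of these markers, and of the myotube markers above, in the ribosomal protein values was not tested.

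**Figure D3:**
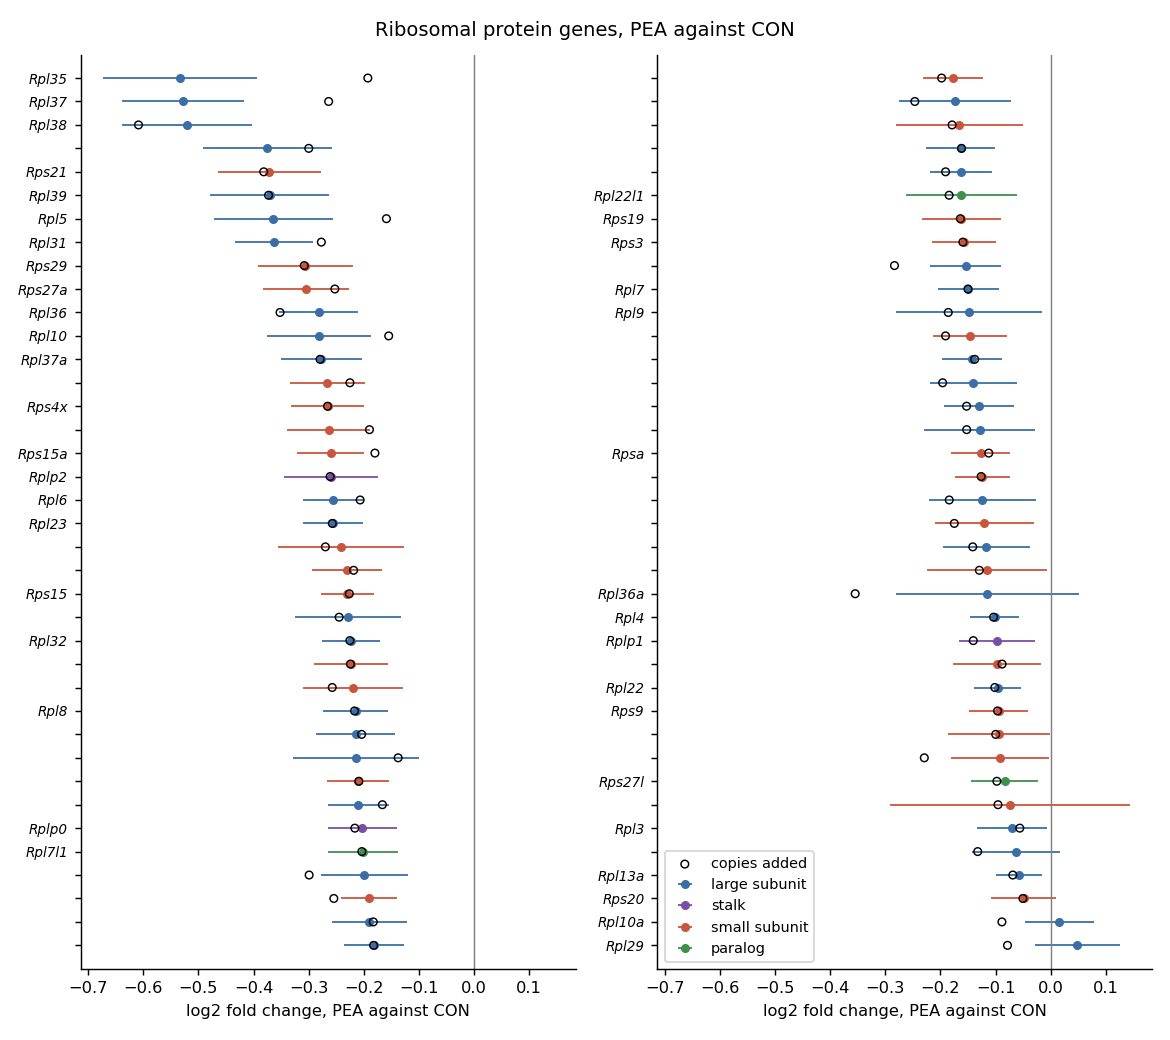
Log2 fold change of PEA against CON (x axis) for each of the 76 ribosomal protein genes, sorted from the lowest, with the names of genes given in the text. Filled points are counts at the gene itself with the standard error of the edgeR fit, coloured by class, and open circles are the same gene with its copies added; with copies added every gene lies left of 0, while Rpl29 and Rpl10a lie right of it on their own counts.

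Among the core genes of the large subunit, the smallest p-values were those of Rpl31, Rpl37, Rpl23, Rpl6, Rpl38 and Rpl32, each called lower in all 12 fits that left out 1 library. Rpl31, a protein at the rim of the exit tunnel, had lowest, median and highest normalized counts of 862, 1079 and 1215 in CON and 786, 819 and 904 in PEA. All PEA libraries lay below 5 of the 6 CON libraries, and only the lowest CON library overlapped. Its log2 fold change was -0.36 ± 0.071 (SE, adjusted p = 0.00495), and -0.28 ± 0.06 (adjusted p = 0.00824) with its 3 copies added.

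Rpl23, which lies at the face between the subunits, has no copy that met the criteria, and its counts were 3946, 4222 and 4721 in CON and 3171, 3584 and 3921 in PEA. Its groups did not overlap, and the log2 fold change was -0.26 ± 0.054 (adjusted p = 0.00837). For Rpl6 the counts were 6097, 6769 and 7282 in CON and 5102, 5612 and 6065 in PEA. These groups did not overlap either, with -0.26 ± 0.055 (adjusted p = 0.00911); with 4 copies added, the gene holding 22.4% of the sum, the value was -0.21 ± 0.061 (adjusted p = 0.0395) and the groups overlapped. Rpl32, with 98.9% of the family count on the gene itself, had 13708, 14236 and 16420.5 in CON and 11724, 12241 and 13452 in PEA, again without overlap (-0.22 ± 0.053, adjusted p = 0.0142).

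Rpl37 and Rpl38 are among the shortest ribosomal proteins, and Rpl38 is known from mice in which its loss alters the translation of Hox mRNAs. Rpl37 counts at the gene itself were 408, 485 and 649.7 in CON and 290.0, 343 and 409 in PEA, -0.53 ± 0.11 (adjusted p = 0.00779). With Rpl37rt added, the summed normalized count was 13298 ± 1396 in CON and 11074 ± 659 in PEA (SD, n = 6 each), and the log2 fold change was -0.26 ± 0.063 (adjusted p = 0.0147), a smaller change without overlap of the groups. Rpl38 counts were 319.5, 425 and 581 in CON and 270.0, 305 and 326 in PEA, -0.52 ± 0.12 (adjusted p = 0.0117). In this case the sum with the copy Rpl38-ps2 fell from 844 ± 228 to 550.4 ± 12.7, -0.61 ± 0.12 (adjusted p = 0.00603), and CON replicate 4 was the highest library at 1279, the other CON libraries lying between 659 and 835.

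With all libraries, Rpl35 had the lowest log2 fold change of the members, and it lies outside the naming rule; it was chosen after its values were seen, as was Rpl36. Rpl35 counts were 824, 906 and 1689.8 in CON and 683, 712 and 786 in PEA and did not overlap, -0.53 ± 0.14 (adjusted p = 0.0224); the highest was CON replicate 4, and without that library the value was -0.35 ± 0.074 (adjusted p = 0.0101). The gene itself held 5.37% of the family count, and with both copies added the value was -0.19 ± 0.048 (adjusted p = 0.0185) with overlapping groups. Rpl36 did not overlap either, with 1470.2, 1544 and 2028 in CON and 1173, 1348 and 1401 in PEA, and changed by -0.28 ± 0.072 (adjusted p = 0.0197) alone and by -0.35 ± 0.094 (adjusted p = 0.0253) with 3 copies. In the 12 fits that left out 1 library, 10 called Rpl35 and 11 called Rpl36.

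On the small subunit Rps15, Rps15a, Rps4x, Rps21 and Rps27a were among the genes with the smallest p-values, the first 2 called lower in all 12 fits that left out 1 library, Rps4x and Rps27a in 11 and Rps21 in 10; the calls were lost without PEA replicate 5 for Rps4x and Rps27a and without PEA replicate 5 or PEA replicate 6 for Rps21. Rps15, a protein of the subunit's head that is needed for export of its precursor from the nucleus, had counts of 18684, 19015 and 21352 in CON and 16038, 16355 and 17816 in PEA. The groups stood apart, with means of 19610 ± 1184 and 16692 ± 746 (SD, n = 6 each), and the log2 fold change was -0.23 ± 0.048 (adjusted p = 0.00745). Rps15a was lower at the gene itself, 1566, 1674 and 1989 in CON and 1274, 1419.7 and 1548 in PEA without overlap (-0.26 ± 0.061, adjusted p = 0.0136). With its 7 copies the change was -0.18 ± 0.058 and missed the threshold (adjusted p = 0.0527), the gene itself holding 20.7% of the sum. Rps4x, the X-linked Rps4 gene, had 13108, 14606 and 17067 in CON and 11116, 12368 and 13390.1 in PEA, with -0.27 ± 0.067 (adjusted p = 0.0188) alone and -0.27 ± 0.066 (adjusted p = 0.0168) with copies.

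Rps21, whose product sits on the solvent side of the subunit, had normalized counts of 2637, 3121 and 4055 in CON and 2163, 2429.7 and 2884 in PEA, a log2 fold change of -0.37 ± 0.094 (adjusted p = 0.0193). Rps27a, which is made as a fusion with ubiquitin, ran from 1915, 2084 and 2522 in CON to 1406, 1761 and 1950.0 in PEA, changing by -0.30 ± 0.078 (adjusted p = 0.021). In both genes the groups overlapped, and each was also called with copies added, at -0.38 ± 0.091 and -0.25 ± 0.068 (adjusted p = 0.0147 and 0.0257).

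**Figure D4:**
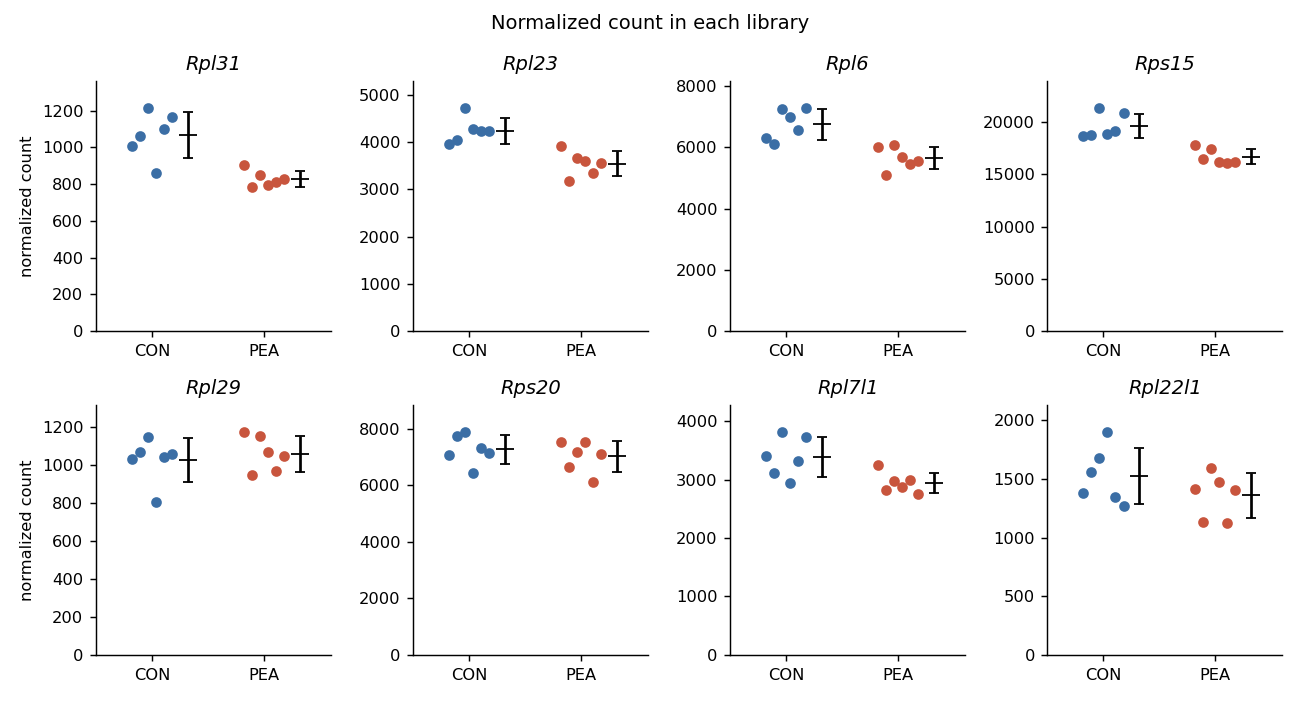
Normalized count in each library (y axis, from 0) of 8 genes in CON and PEA; points are libraries and the bar beside them gives mean ± SD (n = 6 each). Rpl23, Rpl6 and Rps15 show PEA wholly below CON, Rpl31 overlaps by the lowest CON library, and Rpl29, Rps20, Rpl7l1 and Rpl22l1 overlap more widely.

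The stalk, a flexible arm of the large subunit that recruits the translation factors, is built from Rplp0 at its base and dimers of Rplp1 and Rplp2. Rplp0, the most counted of all members, had 42889, 45689 and 53954 in CON and 39469.6, 40314 and 45003 in PEA. It was called lower, by -0.20 ± 0.063 (adjusted p = 0.0469), with overlapping groups, and kept the call in 3 of the 12 fits that left out 1 library, those without CON replicate 2, CON replicate 4 or PEA replicate 1. Rplp2 had 2233, 2377 and 3054 in CON and 1666, 2199 and 2277 in PEA, PEA replicate 5 being the lowest, and its -0.26 ± 0.086 missed the threshold (adjusted p = 0.0602) in edgeR and passed it in DESeq2 (adjusted p = 0.0264). The Rplp0 call was lost with limma on the deposited normalized counts (adjusted p = 0.0643), and with copies added the value was -0.22 ± 0.063 (adjusted p = 0.0367). Rplp1 had 15307, 17593 and 19952 and 14619, 16081 and 19140.4, -0.097 ± 0.07 (adjusted p = 0.397), -0.059 without CON replicate 3 and -0.14 ± 0.062 (adjusted p = 0.147) with copies. Rpsa, the laminin receptor precursor that also forms part of the small subunit, had 13873, 14586 and 16359 in CON and 12453, 13716 and 14888 in PEA and did not pass (-0.13 ± 0.053, adjusted p = 0.132); with copies, the gene holding 37.2% of the sum, it had -0.11 ± 0.054 (adjusted p = 0.187). Differences between the stalk proteins were not tested.

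At the other end lay Rpl10a, Rpl29, Rps20 and Rpl13a, the core genes with log2 fold changes nearest to 0. Rpl29 had 805, 1052 and 1151 in CON and 946, 1061 and 1177 in PEA, a value of 0.048 ± 0.077 (adjusted p = 0.726), and Rpl10a had 1721, 1907 and 2279.5 and 1817, 1942 and 2099, 0.016 ± 0.062 (adjusted p = 0.899). Both turned below 0 with copies added, to -0.078 ± 0.05 and -0.088 ± 0.04 (adjusted p = 0.335 and 0.166); Rpl29 also turned without CON replicate 4, to -0.011, and Rpl10a without CON replicate 1, CON replicate 6 or PEA replicate 6, to between -0.018 and -0.0027. Rps20, with almost all of its family count on the gene itself, had 6453, 7236 and 7907 in CON and 6118, 7139.6 and 7546 in PEA (-0.049 ± 0.059, adjusted p = 0.635). Rpl13a, a component of an interferon-induced complex that silences inflammatory mRNAs in macrophages, had 13432, 13997 and 14425 and 12542, 13444 and 14301 (-0.058 ± 0.042, adjusted p = 0.4), and -0.069 ± 0.043 (adjusted p = 0.322) with copies. A p that misses the threshold does not show that these 4 genes were equal in the groups.

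With the counts of all copies added to their genes, a setting chosen after seeing the data, 42 of 73 core genes were called lower and 0 higher, against 4.82% of all genes called lower in that fit. All 73 log2 fold changes were below 0, from -0.61 to -0.05 with a median of -0.19, and the groups did not overlap, PEA lower, for 19, against 1.82% of all genes in that setting. Of the 29 genes called before, 27 were called again, Rpl5 and Rps15a were not, and 15 were added, among them Rpl10, Rpl12, Rpl26, Rpl28, Rpl36a and Rps6. Fold changes on both scales had a Spearman correlation of 0.74 across the 73 genes, which share libraries and, in part, reads. Of 140 of the copies tested on their own, 34 (24.3%) were called lower and 0 higher by edgeR, against 4.74% and 6.31% of all genes, DESeq2 calling 46 and 0 and limma-voom 35 and 0, with 0 higher at an unadjusted p below 0.05 in edgeR and 2 in DESeq2. Their median was -0.18, with 128 values below 0 and 12 above, from -0.96 to 0.36. These copies are not separate observations. Gm11518 and Rpl27-ps3 had the same means, SDs and edgeR adjusted p (0.0254), as had Gm13370 and Gm10240 (0.0422), and each was counted as a call. The 23 core genes with 75% or more of the family count on the gene itself had a median of -0.20 with 11 called lower, the 19 with 25% to 75% had -0.16 with 7 called, and the 31 with under 25% had -0.20 with 11 called. The median standard error of the latter fell from 0.08 to 0.052 when copies were added.

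No copy with values met the search criteria for 11 core genes, though shorter stretches, and genes outside the search, can still share their sequence. Of its coding stretches of 50 bases Rpl23 had 13.4%, Rplp2 33.4% and Rpl8 91.3% to itself. Of the 11, 5 were called lower (Rpl39, Rps29, Rpl37a, Rpl23 and Rpl8), against 4.74% of all genes tested, all 11 log2 fold changes were below 0, and the median was -0.21. They are described here as a class chosen after their values were seen. Rpl8, which lies close to the peptidyl transferase centre, had 36804, 38584 and 44612 in CON and 30468, 34145 and 37712 in PEA (-0.21 ± 0.059, adjusted p = 0.0285). Rpl37a and Rps29, both short zinc-binding proteins, changed by -0.28 ± 0.073 and -0.31 ± 0.086 (adjusted p = 0.0243 and 0.0321). Groups overlapped in these 3 genes, and the calls were kept in 6, 8 and 7 of the 12 fits that left out 1 library for Rpl8, Rpl37a and Rps29. The others, among them Rps19, Rps3 and Rpl4, did not pass, with values from -0.26 for Rplp2 to -0.095 for Rps9.

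The core genes with the shortest coding sequences had a lower median fold change as a class, with ranges that overlapped those of the longer genes. The 20 core genes with a coding length of 400 bases or less had a median log2 fold change of -0.26 and 12 calls, the 30 genes of over 400 and up to 600 bases -0.16 and 10 calls, and the 23 longer genes -0.16 and 7 calls. The values ran from -0.53 to -0.049 in the shortest class, from -0.30 to 0.048 in the middle class and from -0.36 to 0.016 in the longest, so that Rps20, of the shortest class, lay near 0 and Rpl5, of the longest, at -0.36. Without CON replicate 4, which stood apart from the other CON libraries in the ratio of short to long genes given next, the medians were -0.23, -0.20 and -0.19 and the correlation below was 0.31. With copies added the medians were -0.27, -0.18 and -0.16, with 13, 18 and 11 calls. The Spearman correlation of fold change with coding length was 0.36 at the genes themselves and 0.52 with copies, across 73 genes that are not independent replicates. Other protein-coding genes with values ran the same way: among 501 genes of 400 coding bases or less the median was -0.098 and 14.6% were called lower, among 926 in the middle class -0.056 and 9.83%, and among 10634 longer ones 0.019 and 3.33%. After removal of the trend with exon length and GC content over all genes, the 3 classes of core genes had medians of -0.29, -0.19 and -0.20, where the median of all genes was -0.036. The part of transcript length in the result was not tested further.

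The summed count of the short class over that of the long class, with copies, did not separate the groups. Its log2 value was lowest, median and highest at -1.98, -1.95 and -1.73 in CON and -1.995, -1.98 and -1.95 in PEA. CON replicate 4 was far above the rest, and 3 PEA libraries lay below every CON library. From counts at the genes themselves the ratio was -2.14, -2.06 and -1.998 in CON and -2.11, -2.08 and -2.05 in PEA, with no PEA library below the CON range.

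**Figure D5:**
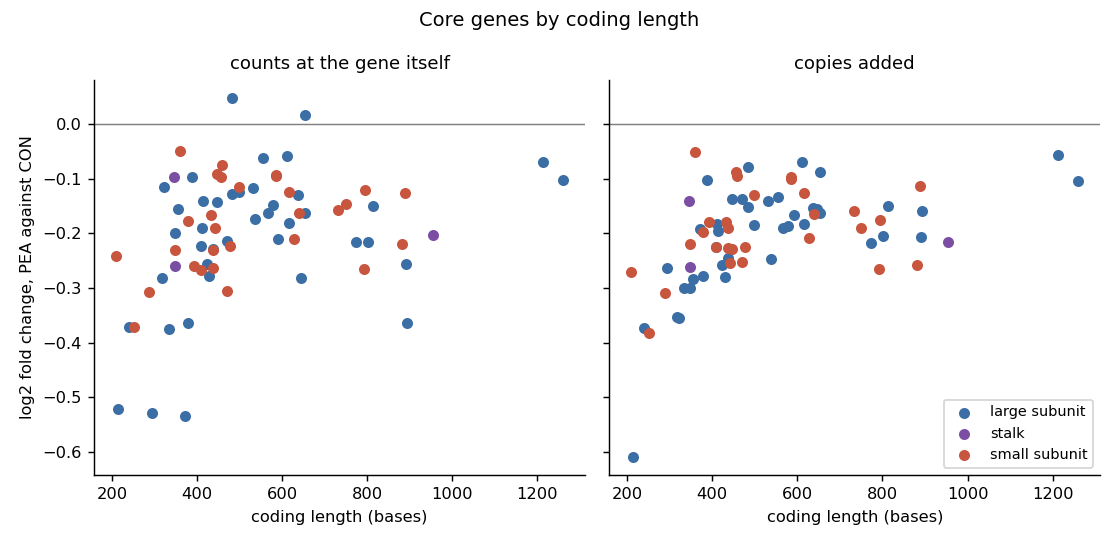
Log2 fold change of PEA against CON (y axis) by coding length in bases (x axis) for the 73 core genes, from counts at the gene itself (left) and with copies added (right), coloured by class. The points below -0.3 lie mostly under 400 bases on the left, and on the right all of them do.

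Levels per length differed widely between the core genes. Per kilobase of annotated exon, Rplp1 was highest at 29104 normalized counts and Rpl9 lowest at 29.1, 999 times apart, with quartiles of 388 and 2666 over the core genes. This exon length joins the exons of all annotated transcripts, 587 bases for Rplp1 and 5971 for Rpl9, so part of the gap lies in the length. Per kilobase of coding sequence with copies added, Rpl9 stood at 38449.9 and Rplp1 at 58141, and the quartiles were 18216 and 38117. Rps18 was then highest at 69121, Rps2, with 17 copies found, lowest at 417, and Rpl38 next at 3272. These levels describe where counts were placed per length and are no measure of protein.

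The paralogs Rpl7l1, Rpl22l1 and Rps27l carry introns and have diverged in sequence from their core genes, though they too can have copies. The stretches of 60 coding bases most alike between a core gene and its paralog show this, with bases of the paralog that differ in capitals.

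Rpl22, chr4:152410150-152418542, plus strand: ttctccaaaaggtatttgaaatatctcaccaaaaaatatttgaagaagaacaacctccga
Rpl22l1, chr3:28859585-28861573, plus strand: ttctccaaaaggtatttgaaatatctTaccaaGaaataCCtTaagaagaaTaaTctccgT
Rpl7, chr1:16169408-16174886, minus strand: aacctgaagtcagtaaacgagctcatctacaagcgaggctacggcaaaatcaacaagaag
Rpl7l1, chr17:47084824-47093606, minus strand: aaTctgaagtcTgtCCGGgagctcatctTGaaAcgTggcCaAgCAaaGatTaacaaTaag

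Rpl22l1 differed from Rpl22 at 8 of these bases and shared no run longer than 26, and Rpl7l1 differed from Rpl7 at 17 with a longest run of 10. Rpl3l, the striated muscle paralog, was all but absent from these myotubes: its normalized counts were 1.15, 3.22, 0, 0, 1.57 and 10.17 in the 6 CON libraries and ran from 1.16 to 4.31 in PEA, against 1079.7 ± 84.6 and 1026 ± 81.1 for Rpl3 itself and 32862 ± 1112 and 31619 ± 1158 for Rpl3-ps1 (SD, n = 6 each). Rpl3l did not pass the filter on low counts, and a change was not detectable at this depth. Rpl3 was not called, at -0.07 ± 0.064 (adjusted p = 0.522) alone and -0.056 ± 0.041 (adjusted p = 0.413) with copies.

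Of the 3 paralogs tested, 1 was called lower, where 4.74% of all genes were, and 1 of 3 says little beside that share. Rpl7l1, whose relative Rpl7 binds the ribosomal RNA of the large subunit, had 2938, 3355 and 3823 in CON and 2747, 2923 and 3246 in PEA and fell by 0.20 ± 0.063 on the log2 scale (adjusted p = 0.0481) with overlapping groups. This call was kept in 3 of the 12 fits that left out 1 library, those without CON replicate 2, CON replicate 4 or PEA replicate 1, and was lost without a filter on low counts (adjusted p = 0.0558) and in thinned libraries (adjusted p = 0.0661). Rpl22l1 had 1269, 1471 and 1903 in CON and 1124, 1410.3 and 1596 in PEA, -0.16 ± 0.10 (adjusted p = 0.319), and -0.09 without CON replicate 4; the gene held 53.9% of the sum with its 1 copy, and the value was -0.18 ± 0.096 (adjusted p = 0.225) with the copy added. Rps27l, a target of the tumour suppressor Trp53, had 2696, 2759.6 and 2924 and 2224, 2642 and 3030.4, -0.083 ± 0.061 (adjusted p = 0.406); its core gene Rps27 was not analysed here, and the copy Rps27rt, with a coding sequence identical to that of Rps27, had 13901 ± 463 in CON and 12524 ± 770.5 in PEA (-0.15 ± 0.046, adjusted p = 0.047).

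The ratio of a paralog to its core gene within each library asks whether both moved together. For Rpl22l1 over Rpl22 the log2 ratio of counts was -2.41, -2.18 and -1.82 in CON and -2.46, -2.20 and -2.01 in PEA. The groups overlapped throughout, and the mean differed by -0.064 ± 0.11 (SE, two-sided exact permutation test, p = 0.563, adjusted over 3 pairs 0.844). For Rpl7l1 over Rpl7 it was -2.42, -2.31 and -2.21 in CON and -2.47, -2.36 and -2.25 in PEA, a difference of -0.049 ± 0.044 (exact permutation p = 0.277, adjusted 0.831). Rpl36al, an intronless relative of Rpl36a outside the symbol rule, gave the third pair, 2.65, 2.80 and 3.84 in CON and 2.65, 2.92 and 3.25 in PEA, with -0.032 ± 0.20 (exact permutation p = 0.907, adjusted 0.907). This last value turned with the copy of Rpl36a added to it, to 0.25 (exact permutation, adjusted p = 0.0455), since Rpl36a then changed by -0.35 ± 0.077 in place of -0.11 ± 0.17. Single libraries set the sign of 2 differences: without CON replicate 4 the pairs of Rpl22l1 and Rpl36al gave 0.0047 and 0.14, and without PEA replicate 1 that of Rpl36al gave 0.026. The smallest p that 6 against 6 libraries allow is 0.00216. Missing the threshold does not show that a ratio stayed the same.

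The other core partners of paralogs ranged from called to not called. Rpl39, a short peptide lining the exit tunnel, had 2242, 2472 and 3809 in CON and 1856, 2072 and 2364 in PEA and was called lower, also in 7 of 12 fits without 1 library but not without CON replicate 3 or PEA replicates 2, 4, 5 or 6 (-0.37 ± 0.11, adjusted p = 0.0359). Rpl7 had 14833, 16712 and 18713 and 13439, 15148 and 15919 (-0.15 ± 0.055, adjusted p = 0.0871 by edgeR); it was called lower by DESeq2 (adjusted p = 0.0455) and with the trend of exon length and GC content removed (adjusted p = 0.0234). Rpl22, an RNA-binding protein of the large subunit that is dispensable for general protein synthesis, had 6419.6, 6758 and 7009.8 and 5779, 6376 and 6647 (-0.096 ± 0.042, adjusted p = 0.146, and 0.0448 with that trend removed). All 3 pairs of ranges overlapped. Rpl10, which joins the large subunit last, and Rpl9 held 1.72% and 0.781% of their family counts; at the gene itself they were not called by edgeR (-0.28 ± 0.094 and -0.15 ± 0.13, adjusted p = 0.0619 and 0.512) and were called with copies (-0.15 ± 0.048 and -0.19 ± 0.058, adjusted p = 0.0479 and 0.0489). The value at Rpl9 itself was -0.086, -0.079 and -0.089 without CON replicate 3, PEA replicate 1 and PEA replicate 3. Rpl10 alone was called lower by DESeq2 and limma-voom and with the trend of exon length and GC content removed (adjusted p = 0.0354, 0.0491 and 0.0473). With that trend removed, 9.5% of all genes were called lower, against 4.74% in the main fit, so calls gained there stand beside a larger share.

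The annotated starts of the genes were read for the TOP motif, which the members are known to share. RefSeq promoters of build GRCm38.p6, 250 bases before to 50 after a start, matched 56 of the 76 members. A C followed by at least 4 further C or T, beginning within 5 bases of an annotated start, was present in 28 of them (50%) and in 21.2% of 27025 genes with a promoter. Shown are the 15 bases on either side of the annotated start for Rpl35, which has the run, and for the 9 with the run among the 22 members chosen by the naming rule that have a promoter; the other 13 of these lack it and are not shown. Capitals mark the run from its qualifying C nearest the annotated start, so C or T bases directly before that C are not marked. The run of Rpl13a, of 14 bases, goes on past the end of the window.

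Rpl31, chr1:39367836-39367865, plus strand: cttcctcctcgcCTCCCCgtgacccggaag
Rpl35, chr2:39005117-39005146, minus strand: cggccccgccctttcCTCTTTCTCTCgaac
Rpl38, chr11:114668565-114668594, plus strand: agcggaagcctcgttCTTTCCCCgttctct
Rpl39, chrX:37085208-37085237, minus strand: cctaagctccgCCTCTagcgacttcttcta
Rpl13a, chr7:45128731-45128760, minus strand: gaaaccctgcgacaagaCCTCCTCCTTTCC
Rplp2, chr7:141447636-141447665, plus strand: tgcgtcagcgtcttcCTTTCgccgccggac
Rps15a, chr7:118116133-118116162, minus strand: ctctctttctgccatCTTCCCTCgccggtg
Rps21, chr2:180257364-180257393, plus strand: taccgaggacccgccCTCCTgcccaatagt
Rpl22l1, chr3:28805493-28805522, plus strand: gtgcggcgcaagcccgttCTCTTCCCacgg
Rps27l, chr9:66946071-66946100, plus strand: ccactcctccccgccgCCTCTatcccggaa

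Genes with the run include both called genes (Rpl31, Rpl35, Rpl38, Rpl39, Rps15a and Rps21) and genes that were not called (Rpl13a, Rplp2 and the paralogs Rpl22l1 and Rps27l). Further letters in the 300-base windows, searched on both strands, were the ETS-type CCGGAAG in 42.9% of members and 9.93% of all genes, the Sp-type GGGCGG in 64.3% and 38.2%, the YY1-type AAGATGGCG in 5.36% and 1.64%, and the E box CACGTG in 10.7% and 8.09%. A match describes letters and not a bound site.

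Among the ribosomal protein genes outside the symbol rule, Rack1 and Fau were not called by edgeR, nor was Rpl36al (-0.11 ± 0.052, adjusted p = 0.172). Rack1, the scaffold on the head of the small subunit, had 32537, 34433 and 37501 normalized counts in CON and 30336, 31783 and 33152 in PEA with overlapping groups (-0.13 ± 0.046, adjusted p = 0.0698); it passed in DESeq2, at an adjusted p of 0.0211. Fau, a ribosomal protein made as a fusion with a ubiquitin-like protein, had 2429, 3193 and 3365 and 2605, 2853 and 3138 (-0.10 ± 0.069, adjusted p = 0.359). Of the 2 genes Rack1 and Fau, edgeR and limma-voom called 0 and DESeq2 1 lower. Over all genes these tools called 4.74%, 5% and 5.67% lower, and Rack1 had an unadjusted p below 0.05 in each of them. Without CON replicate 4 the value of Fau was -0.16 (adjusted p = 0.0508).

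Among 18 other translation genes with TOP mRNAs, 3 were called lower and 0 higher, against 4.74% and 6.31% of all genes; 1 had a higher level at an unadjusted p below 0.05 in edgeR and limma-voom and 2 in DESeq2, and DESeq2 called 6 lower and 1 higher. Their median log2 fold change was -0.091. Btf3, a subunit of the nascent polypeptide-associated complex, had 4362, 4616 and 5506 in CON and 3635, 4138 and 4354 in PEA (-0.21 ± 0.062, adjusted p = 0.0369). Eef1d, a subunit of the exchange factor of elongation, had 5367, 5588 and 6267 and 4729, 5194 and 5288 (-0.16 ± 0.049, adjusted p = 0.0444). In both genes the groups did not overlap, while Tpt1, a growth-related TOP mRNA, overlapped at 21829, 23020.3 and 23664 and 18809.6, 20313 and 22297 (-0.17 ± 0.048, adjusted p = 0.0332). Eef1d lost its call without a filter on low counts and in thinned libraries (adjusted p = 0.0533 and 0.0527). In the 12 fits that left out 1 library the calls were kept in 5 for Btf3, 5 for Tpt1 and 3 for Eef1d, and removal of any of CON replicates 3, 5 and 6 or PEA replicates 2, 5 and 6 ended all 3.

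Of 39 genes of ribosome biogenesis, 5 were called lower (Pes1, Bop1, Nip7, Nmd3 and Snu13) and 0 higher, again against 4.74% and 6.31%; by DESeq2 it was 7 and 0, by limma-voom 6 and 0, and at an unadjusted p below 0.05 edgeR and DESeq2 placed 0 higher and limma-voom 1. The median was -0.098 and 29 of the 39 values were below 0. Pes1 and Bop1, partners in the complex that processes RNA of the large subunit, had 2949 ± 262 and 3386 ± 185 in CON and 2546 ± 89.7 and 3032 ± 98.1 in PEA (SD, n = 6 each). They changed by -0.21 ± 0.055 and -0.16 ± 0.044 (adjusted p = 0.0227 and 0.0321). Nip7, which also acts in maturation of pre-ribosomes, did not overlap, with 1012, 1099 and 1177 in CON and 923, 960.4 and 1010.3 in PEA (-0.18 ± 0.051, adjusted p = 0.0357). The calls were kept in 9, 7 and 4 of the 12 fits that left out 1 library for Pes1, Bop1 and Nip7; Nip7 kept its call without CON replicate 2, CON replicate 4, PEA replicate 1 or PEA replicate 5.

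None of 10 growth regulators was called by edgeR, DESeq2 or limma-voom with all libraries; with 4.74% of all genes called lower and 6.31% higher, a count of 0 in so short a list is no result about these genes. At an unadjusted p below 0.05 each tool placed 1 lower and 1 higher, and their median was -0.0057. Myc, the transcription factor that drives ribosome production, had 1129, 1341 and 1568 in CON and 1308, 1457 and 1548 in PEA (0.11 ± 0.068, adjusted p = 0.313). Mtor had 1003, 1140.0 and 1284 and 1046, 1233 and 1370.0 (0.066 ± 0.07, adjusted p = 0.59), and Larp1 5771, 5954 and 6523 and 5868, 6133 and 6286 (0.021 ± 0.042, adjusted p = 0.782). The groups overlapped in all 3 genes. Eif4ebp1, the translational repressor that mTOR inactivates, and Rps6kb2, a kinase of the small subunit protein Rps6, had the smallest p-values of the list and missed the threshold (0.17 ± 0.059 and -0.14 ± 0.06, adjusted p = 0.0685 and 0.133). Eif4ebp1 passed as higher without CON replicate 2 or PEA replicate 3. Rps6kb2 passed as lower with the trend of exon length and GC content removed (adjusted p = 0.0378), where 9.5% of all genes were called lower. These are mRNA levels; the activity of the kinases was not measured.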

How the data were processed

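Poly-A RNA-seq libraries (NEBNext Ultra II, paired reads of 50 bases, NextSeq) of 12 C2C12 myotube samples were analysed, 6 CON and 6 PEA. The authors removed reads of low base quality, aligned with STAR (listed as 4.4.1d in the submitters' processing notes) to mm39 and quantified to Ensembl gene models in Partek Flow. The deposited estimated counts are not whole for 45% of values above 0 and were rounded here. The deposited normalized counts, a signal that the authors scaled by DESeq2 size factors, equal the estimated counts times 1 factor per library, and serve for the levels given. The sample records of PEA replicate 2 share 1 row of values and were counted as 1 library.

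Groups follow the sample titles. PEA was compared with CON by edgeR 4.0.16 (quasi-likelihood test, TMM, filterByExpr, no covariate, R 4.3.3) over all genes. P-values were adjusted by Benjamini-Hochberg and called below 0.05; the fit was never restricted to the members. DESeq2 1.42.0, limma 3.58.1 and the other alternatives are given in the closing section. The biological coefficient of variation was 0.105. Copies were found with BLAST 2.17.0 against reference transcripts (GENCODE M39, GRCm39). Paralog ratios, log2 with a pseudocount of 1, were tested by exact permutation. Members, gene lists and tests were chosen with earlier results of these data known. Genes named are the 6 of each subunit with the smallest p, core genes above 0 and the 4 nearest to 0, the highest and lowest per length, stalk genes, Rpsa, paralogs and their partners, Fau, Rack1, the 3 smallest p of each other list, Myc, Mtor and Larp1; others are marked in the text, and some items are not reported here. The planned comparison of protein sequences was not made. Depth limits low genes such as Rpl3l most.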

Additional observations from a re-analysis of the deposited data

Results flagged for a closer look

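Among 198 groups of 6 libraries examined, 17 held a library far from the other 5 by Dixon's criterion, which chance alone gives in about 1 in 20 groups; over all genes tested it was 5.67% of groups. CON replicate 4 stood apart in 12 of them, high for some genes and low for others. In normalized counts it was the highest CON library for Rpl35 (1689.8 against 824 to 1116 in the other CON libraries), Rpl36 (2028 against 1470.2 to 1631), Rps28 (1039 against 557 to 685) and Rps29 (1616 against 1099.8 to 1257). It was the lowest for Rpl29 (805 against 1032 to 1151), Rpl36a (248 against 519.8 to 608), Rps3a1 (2369 against 3504 to 3856), Rps7 (2659 against 4015 to 4528), Rps14 (13622 against 18033 to 20538) and Rps18 (366 against 1149.7 to 1542). It was also the highest for the log2 ratio of Rpl36al to Rpl36a, at 3.84 against 2.65 to 2.99, and for the log2 ratio of short to long core genes with copies, at -1.73 against -1.98 to -1.93. PEA replicate 5 had the lowest Rplp2, 1666 against 2148 to 2277, and the lowest Rpl36, 1173 against 1323 to 1401; PEA replicate 1 had the highest Rpl28, 3870.2 against 3179 to 3391. PEA replicate 2 had the lowest Eef1d, 4729 against 5097 to 5288, and CON replicate 3 the highest Btf3, 5506 against 4362 to 4762. Without CON replicate 4, 35 core genes were called lower, and without CON replicate 3 it was 20, against 29 with all libraries. Of all genes, 4.54%, 3.75% and 4.74% were called lower in these fits. What set these libraries apart was not tested.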

How the results depend on the processing

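The median log2 fold change of the core genes stayed below 0 under all alternatives, from -0.21 to -0.14, and no core gene was called higher under any of them. The count of core genes called lower was 27 to 42 with another tool, scaling, filter, rounding, thinning, trend removal or placement of copies. In those settings 3.3% to 9.5% of all genes were called lower. At an adjusted p below 0.01 the count was 5, and the share of all genes at that threshold is not given here. With 1 library left out it was 10 to 35, where 2.16% to 7.35% of all genes were called lower. All genes called, lower or higher, then ran from 778 to 2203 against 1452. Adding named pseudogenes or the 241 copies of the members moved the difference in the members' share of counts from -0.24 to -0.418 and -0.604 percentage points, and it was -0.27 to -0.18 when 1 library was left out. Either addition turned the log2 ratio of Rpl36al to Rpl36a to 0.25. Leaving out 1 library gave differences of -0.096 to 0.14 for that ratio, -0.11 to 0.0047 for Rpl22l1 to Rpl22 and -0.071 to -0.027 for Rpl7l1 to Rpl7.

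Rpl10a, not called in any fit, turned to -0.015 with the trend of exon length and GC removed, -0.0099 with the replicate block as well, -0.088 with named pseudogenes or all copies added, and -0.018, -0.0027 and -0.0049 without CON replicate 1, CON replicate 6 and PEA replicate 6; leaving out 1 library gave up to 0.068. Rpl29 turned to -0.078 with all copies and -0.011 without CON replicate 4, where leaving out 1 library gave up to 0.083. The uncalled values of Fau, Mtor, Myc, Rpl3, Rpl9, Rpl22l1, Rpl36a, Rplp1, Rps20, Rps27l and Larp1 kept their sign but moved by over 1.5 times when 1 library was left out, for example from -0.20 to -0.079 for Rpl9, from -0.25 to -0.041 for Rpl36a and from -0.21 to -0.09 for Rpl22l1. Larp1 turned to -0.029 and -0.028 with the trend removed, without and with the replicate block. Of the other values of named genes, 67 of those that left out 1 library and 9 of the rest lost a call, and 6 and 21 gained one. The cause of these shifts was not tested.

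Replicate numbers do not pair the libraries: same-numbered libraries had correlations of deviations between -0.083 and 0.065, and 0 of 6 CON libraries correlated best with their own number. A fit with the replicate number as a block called 30 core genes lower with a median of -0.18, where 4.77% of all genes were called lower. Among the named genes it ended the calls of Tpt1 and Nip7 (adjusted p = 0.0513 and 0.0555) and called Rplp2 lower and Eif4ebp1 higher (adjusted p = 0.0278 and 0.0464).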
